A study of Mus musculus with 12 samples.

Results

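The genes described here encode the mouse receptors for noradrenaline, dopamine, serotonin, acetylcholine, extracellular nucleotides and somatostatin. They were chosen by symbol from the deposited tables, as every gene named Adra, Adrb, Drd, Htr, Chrm, Chrn, P2rx, P2ry or Sstr followed by a receptor number or letter. This gave 69 genes of 27179. By family, 9 were adrenergic, 5 dopamine, 14 serotonin, 5 muscarinic, 16 nicotinic, 7 P2X, 8 P2Y and 5 somatostatin receptors. Of these, 40 reached a mean of 0.5 CPM (counts scaled to a common library total) in at least 1 group of libraries and were tested among 15542 genes. The other 29 were too low to test, and 6 of the 40 passed through a single group. The symbol pattern uses no measured value, but the receptors were singled out with results of these data known.

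RNA was sequenced from the dorsal cortex of C57BL/6 mouse embryos in 12 libraries, 3 in each of 4 groups: Ash2l conditional knockout (cKO) at embryonic age E16.5, wild type (WT) at E16.5, cKO at E14.5 and WT at E14.5. The Ash2l product, ASH2L, is a shared component of the histone methyltransferases of the COMPASS family, whose substrate is lysine 4 of histone H3. Ash2l was deleted by D6-Cre, a recombinase transgene driven in the dorsal telencephalon, so blood, vascular, meningeal and immigrant cells in the same tissue can keep the gene. The series asks what Ash2l does during formation of the cortex. Libraries of each group are called A, B and C in the order of the number in their titles, and a cKO and a WT library with the same letter at 1 age share that number.

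Most of these proteins are receptors with 7 membrane passes that signal through heterotrimeric G proteins. The nicotinic receptors, the P2X receptors and the serotonin receptor subunits Htr3a and Htr3b are instead ion channels opened by acetylcholine, ATP and serotonin. In the developing cortex most amines and acetylcholine come from axons of neurons that lie outside it, whereas the receptors are made by cortical cells. Nicotinic channels are pentamers, either of Chrna7 alone or of alpha subunits such as Chrna4 together with Chrnb2.

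Library totals ran from 14318147 to 24719047 counts. Ash2l lay between 46.9 and 60.6 CPM in the 6 cKO libraries and between 118 and 143 CPM in the 6 WT libraries. At E16.5 its cKO over WT log2 fold change came to -1.20 (SE 0.07) with an edgeR adjusted p of 7.32e-04, and at E14.5 to -1.28 (SE 0.12) with an adjusted p of 0.0107. By Xist and 4 Y-linked genes, at E14.5 all 3 cKO embryos were female and all 3 WT embryos male, so sex and genotype cannot be told apart at that age. At E16.5 cKO C and WT A were female and the others male. The summed level of 14 pan-neuronal markers was 5189 to 5445 CPM in E16.5 cKO libraries and 6916 to 7445 CPM in E16.5 WT libraries, and 9 of the 14 fell. At E14.5 the sum was 2664 to 4684 CPM in cKO and 4667 to 6670 CPM in WT libraries, and 1 of the 14, Nefm, fell. E14.5 cKO A stood apart, with the lowest of these sums and with 10 meningeal fibroblast markers at 496 CPM, against 47.2 to 97.2 CPM in the other E14.5 libraries. There 8 red blood cell markers summed to 675 CPM, against 157 to 323 CPM, and 12 endothelial and pericyte markers to 271 CPM, against 130 to 206 CPM. In bulk tissue, fewer cells of a type and less RNA per cell cannot be told apart.

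Levels of 3 receptor genes stood far above the rest in this tissue. Per length, as CPM divided by gene length in kilobases (RPKM), averaged over 12 libraries, the somatostatin receptor Sstr2 had the highest level at 29.9, followed by the nicotinic subunits Chrna7 at 19.2 and Chrnb2 at 16.55. The order of the 3 differed between groups. In E16.5 cKO libraries Chrna7 was highest at 28.0 ± 5.53, with Sstr2 at 19.1 ± 3.76 and Chrnb2 at 14.7 ± 0.18, while in the E16.5 WT libraries Sstr2 had 31.3 ± 2.89, Chrnb2 21.7 ± 1.49 and Chrna7 19.1 ± 2.34 RPKM. At E14.5 Sstr2 led in both groups, followed by Chrna7 in cKO (16.3 ± 6.33, with Chrnb2 at 11.8 ± 2.34) and by Chrnb2 in WT (18.1 ± 2.64, with Chrna7 at 13.4 ± 0.78). The other 37 tested receptors all had means under 2 RPKM, from Sstr3 at 1.97 to the serotonin receptor Htr7 at 0.0976. The level of Sstr2 rests on a counted gene model of 1158 bases, which starts 4930 bases downstream of its RefSeq promoter, so its level per length is less certain than the others.

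**Figure D1:**
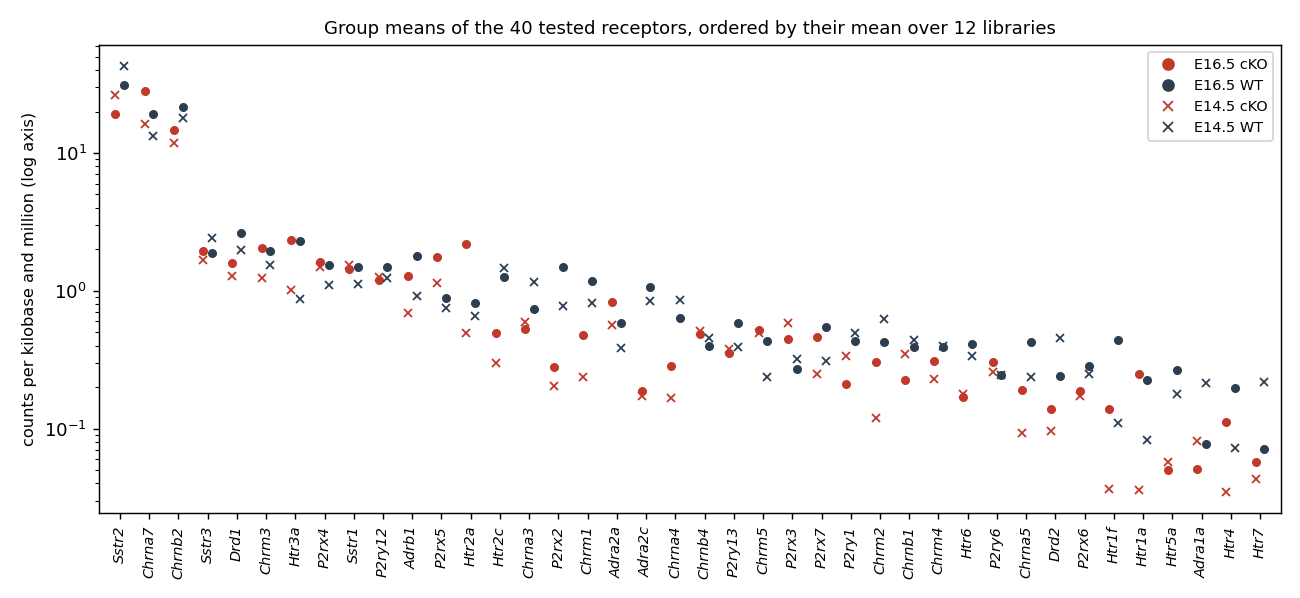
Mean level of each of the 40 tested receptors in each group, in RPKM on a log axis, ordered by the mean over 12 libraries. Circles are E16.5, crosses E14.5, red cKO and dark blue WT. Sstr2, Chrna7 and Chrnb2 lie apart from the other 37 receptors, whose means over 12 libraries are all under 2.

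In the order of levels within a group, most neighbours did not differ by more than the sum of their SDs. Of 39 neighbouring pairs, 37 lay within it in E16.5 cKO, 36 in E16.5 WT, 37 in E14.5 cKO and 36 in E14.5 WT libraries. In every group Sstr2 exceeded the gene after it, and the lowest of the 3 abundant receptors exceeded the gene below, by more than that sum. After Sstr2, Chrna7 and Chrnb2, the highest member of each remaining family was the dopamine receptor Drd1 at 1.86 RPKM, the muscarinic receptor Chrm3 at 1.68, the serotonin channel Htr3a at 1.63, the ATP channel P2rx4 at 1.44, the ADP receptor P2ry12 at 1.30 and the beta adrenoceptor Adrb1 at 1.17.

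The first comparison asks how receptor levels differed in E16.5 cKO cortex. Of the 40 tested receptors, 9 passed an adjusted p of 0.05 (22.5%), against 15.2% of all genes tested. Of these, 8 fell, with 9.37% of all genes falling: the noradrenaline receptor Adra2c, the serotonin receptors Htr5a and Htr1f, the muscarinic receptor Chrm1, the nicotinic subunits Chrna4 and Chrnb2, the ATP channel P2rx2 and Sstr2. The nicotinic subunit Chrna7 alone rose, with 5.82% of all genes rising. The median log2 fold change of the 40 receptors was -0.50, and 27 lay below 0, while the median of all genes tested was 0.02. Adra1a, Drd2, Htr1f, Htr5a, Htr6, Htr7 and P2rx6 passed the filter through WT libraries alone, and all lay below 0. P2ry6 passed through E16.5 cKO libraries alone and lay above 0. The filter was thus part of the median and of the count below 0.

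The promoters of Adra2c, Chrnb2 and Chrna7 are shown because lysine 4 methylation is known to mark CpG-rich promoters, and because these genes are 2 of the 3 falls called in every E16.5 alternative and the single rise. Each is the 250 bases upstream of the RefSeq start, 5′ to 3′ on the gene's own strand in GRCm38.p6, with every CG in capitals. Adra2c is on the plus strand at chr5:35278316-35278565. Chrnb2 is on the minus strand at chr3:89764633-89764882 and Chrna7 on the minus strand at chr7:63212527-63212776.
Adra2c: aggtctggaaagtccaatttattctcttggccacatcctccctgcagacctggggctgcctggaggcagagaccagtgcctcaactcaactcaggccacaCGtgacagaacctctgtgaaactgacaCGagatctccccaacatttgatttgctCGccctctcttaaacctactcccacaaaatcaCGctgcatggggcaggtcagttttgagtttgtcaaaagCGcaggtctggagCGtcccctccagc
Chrnb2: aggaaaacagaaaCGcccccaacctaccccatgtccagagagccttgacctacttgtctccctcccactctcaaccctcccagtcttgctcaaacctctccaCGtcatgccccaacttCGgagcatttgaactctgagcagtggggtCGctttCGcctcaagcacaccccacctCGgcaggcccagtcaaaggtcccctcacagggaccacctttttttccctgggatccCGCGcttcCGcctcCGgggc
Chrna7: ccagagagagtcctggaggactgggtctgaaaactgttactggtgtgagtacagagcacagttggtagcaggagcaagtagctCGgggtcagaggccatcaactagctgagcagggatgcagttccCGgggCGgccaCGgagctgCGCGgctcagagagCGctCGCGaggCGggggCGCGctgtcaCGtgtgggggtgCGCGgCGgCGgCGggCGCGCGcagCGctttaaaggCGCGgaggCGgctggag
The windows hold 6, 10 and 25 CG in that order, and 50.4%, 37.8% and 10.7% of all 32851 promoters of the same length hold at least as many. The other called receptors with a window were Chrna4 with 24 CG, Sstr2 with 18, Htr5a with 13 and Htr1f with 7. Of the 69 receptors, 51 had a window. The median was 13 CG in the 7 called receptors with a window (range 6 to 25), 9.5 in the 24 tested but not called (2 to 41), 5.0 in the 20 not tested (1 to 35) and 6 in all promoters. The ranges overlap, and CG density was read from sequence only.

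Among adrenergic receptors, which bind noradrenaline and adrenaline, Adra2c was called at both ages and no other of the 4 tested members passed. Adra2c encodes the alpha2C receptor, which couples to inhibitory G proteins, and lies at chr5:35278566-35281763 (mm10, plus strand, a single exon). It had 0.425, 0.829 and 0.528 CPM in E16.5 cKO libraries A, B and C, against 3.61, 3.08 and 3.49 CPM in WT libraries A, B and C. Every cKO library lay far below every WT library, with a log2 fold change of -2.50 (SE 0.30, adjusted p = 0.00263). At E14.5 it had 0.646, 0.627 and 0.370 CPM in cKO and 1.55, 3.73 and 2.82 CPM in WT libraries, again without overlap. The log2 fold change there was -2.30 (SE 0.44, adjusted p = 0.0487), and the adjusted p was 0.0545 to 0.216 without any 1 library.

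The related alpha2A receptor gene Adra2a was not called. It averaged 3.14 ± 1.75 CPM in E16.5 cKO and 2.23 ± 0.56 CPM in E16.5 WT libraries (SD, n = 3 each), and the groups overlapped (log2 fold change 0.50, adjusted p = 0.498). Within libraries, the ratio of Adra2c to Adra2a per kilobase was 0.127, 0.229 and 0.559 in E16.5 cKO and 2.607, 1.615 and 1.497 in E16.5 WT libraries. At E14.5 the ratio was 0.223, 0.334 and 0.563 in cKO and 2.5, 1.9 and 2.5 in WT libraries. Adra2a was thus the more abundant of the pair in all 6 cKO libraries and Adra2c in all 6 WT libraries. The 2-sided exact permutation p of the ratio was 0.1 at each age, the smallest that 3 against 3 can give. Adra2a was set beside Adra2c after its values were seen, and Adra2c was already called in these libraries, so the ratio is a description. Adrb1, which couples to the stimulatory G protein, had 4.25, 2.75 and 2.58 CPM in E16.5 cKO and 4.99, 4.59 and 3.80 CPM in E16.5 WT libraries, which overlapped (log2 fold change -0.48, adjusted p = 0.223).

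**Figure D2:**
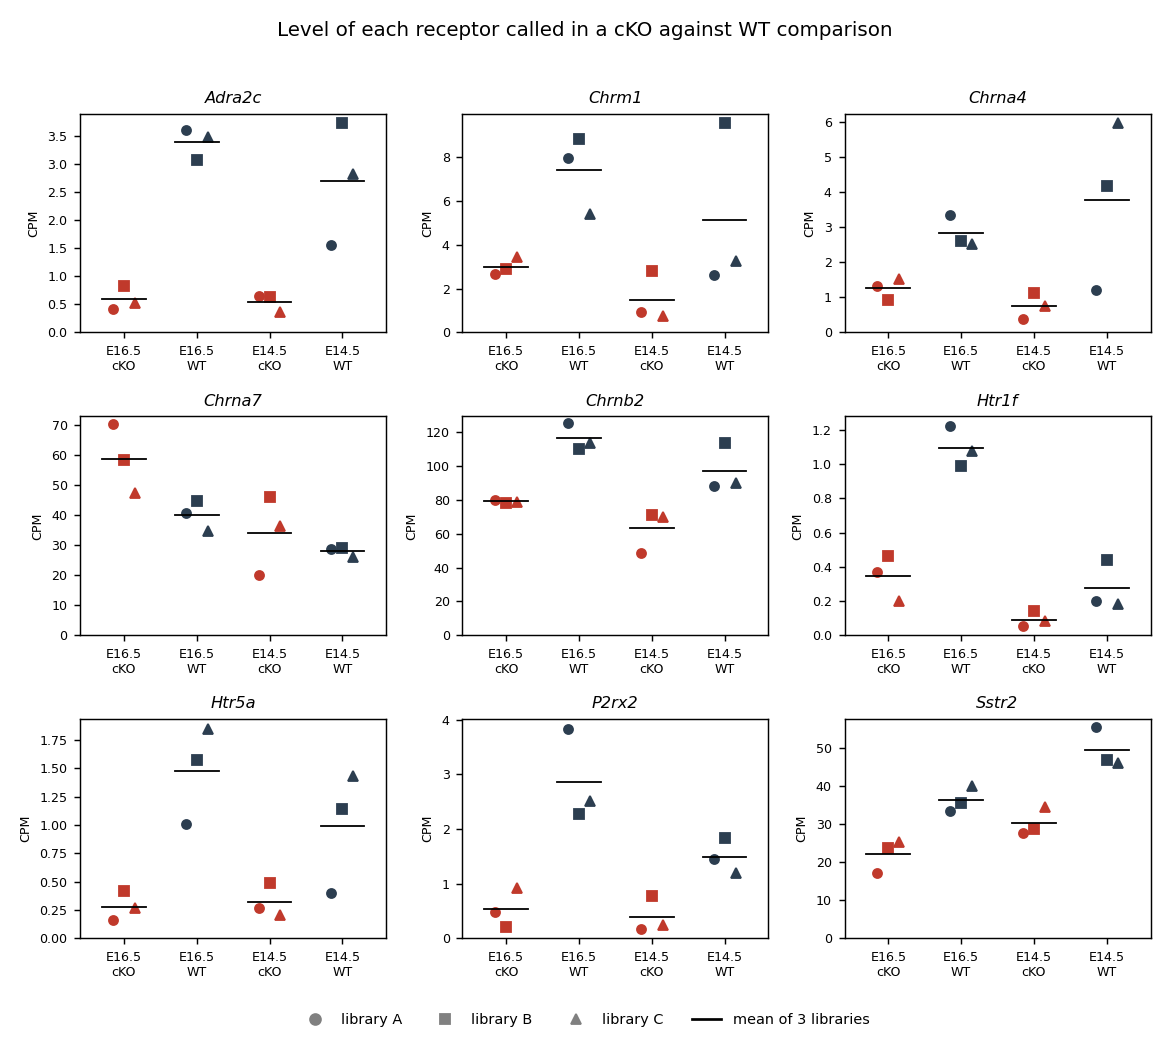
CPM of the 9 receptors called in a cKO against WT comparison, in each library (circle A, square B, triangle C), with the mean of 3 libraries as a line. Red is cKO and dark blue WT. At E16.5 the groups do not overlap for any of the 9, which were chosen by their call in these libraries. Of all genes tested, 17.9% were lower and 19.1% higher without overlap at E16.5. Over both ages, Adra2c, Chrnb2 and P2rx2 are lower in all 6 cKO than in all 6 WT libraries, as were 5.39% of all genes tested.

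Of the 14 serotonin receptors, 9 were tested, 2 fell at E16.5 and none rose. Htr5a (chr5:27841947-27855086, plus strand, mm10) encodes a receptor that couples to inhibitory G proteins. It had 0.159, 0.414 and 0.264 CPM in E16.5 cKO libraries, against 1.01, 1.57 and 1.85 CPM in E16.5 WT libraries. The groups did not overlap (log2 fold change -2.37, SE 0.45, adjusted p = 0.0126), and without WT B the adjusted p was 0.0531. At E14.5, cKO libraries had 0.269, 0.488 and 0.205 CPM and WT libraries 0.400, 1.138 and 1.43 CPM. Here cKO B lay above WT A, and the difference was not called (log2 fold change -1.66, adjusted p = 0.182).

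Htr1f (chr16:64924729-65105784, minus strand, mm10), another receptor coupled to inhibitory G proteins, was near the limit of the counts. It had 7, 9 and 3 counts in E16.5 cKO libraries and 23, 17 and 21 counts in E16.5 WT libraries, which is 0.372, 0.466 and 0.198 CPM in cKO and 1.22, 0.988 and 1.08 CPM in WT. The groups did not overlap (log2 fold change -1.62, SE 0.40, adjusted p = 0.0306). The E14.5 values were 1, 2 and 2 counts in cKO and 4, 7 and 4 counts in WT libraries (log2 fold change -1.52, adjusted p = 0.266). Htr1f passed the filter through E16.5 WT libraries alone, and Htr5a through the WT libraries alone, so a lower level elsewhere was part of their choice. Without a filter on low counts, and with a filter on the mean over all libraries (36 receptors tested), the same 9 receptors were called at E16.5. Without any one of cKO B, cKO C, WT A, WT B or WT C the adjusted p of Htr1f was 0.0658 to 0.0969.

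Htr2a and Htr2c, both coupled to Gq, depended on single libraries. Htr2a averaged 6.46 ± 5.23 CPM in E16.5 cKO and 2.41 ± 0.26 CPM in E16.5 WT libraries. The cKO mean rested on cKO A at 12.5 CPM, while cKO B had 3.57, cKO C 3.30 and the WT libraries 2.15 to 2.67 CPM. The log2 fold change was 1.43 (adjusted p = 0.0992), and 0.51 without cKO A. At E14.5 Htr2a averaged 1.47 ± 1.03 CPM in cKO and 1.94 ± 1.89 CPM in WT libraries (log2 fold change -0.42, adjusted p = 0.806).

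Htr2c is known for its high level in the epithelium of the choroid plexus. It stood at 13.4 CPM in E16.5 WT C and 17.9 CPM in E14.5 WT A, and between 1.06 and 3.19 CPM in the other 10 libraries. The summed level of 9 choroid plexus markers, among them Ttr, was 642 and 498 CPM in those same libraries in that order and 16.8 to 66.4 CPM in the other 10. By group, the sum was 17.8 to 38.5 CPM in E16.5 cKO, 16.8 to 642 in E16.5 WT, 33.0 to 66.4 in E14.5 cKO and 40.8 to 498 in E14.5 WT libraries, and no tested marker of the list was called at either age. The log2 fold change of Htr2c was -1.35 (adjusted p = 0.260) at E16.5 and 0.01 without WT C. It was -2.27 (adjusted p = 0.253) at E14.5 and -0.05 without WT A. The gene model of Htr2c also overlaps 6 small RNA genes on its strand.

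**Figure D3:**
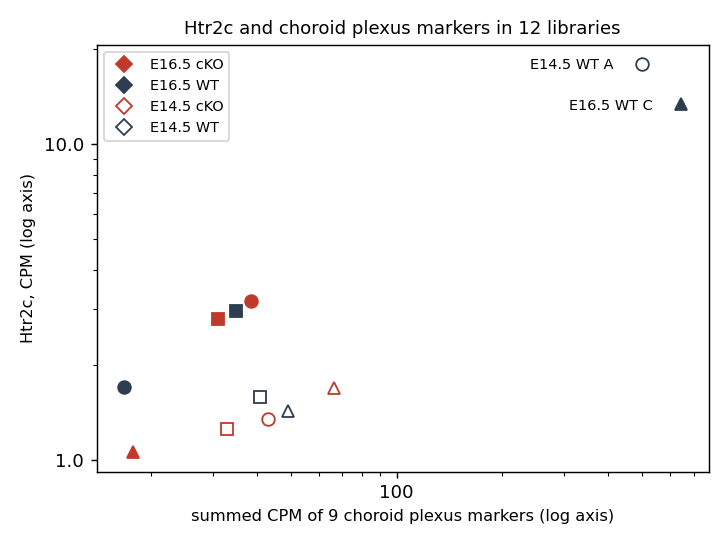
Htr2c in each of 12 libraries (CPM, log axis) against the summed CPM of 9 choroid plexus markers (log axis). Red is cKO, dark blue WT, filled E16.5 and open E14.5. E16.5 WT C and E14.5 WT A lie apart, at 13.4 and 17.9 CPM of Htr2c.

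Htr3a, a subunit of the serotonin-gated channel known from interneurons, had 7.87, 4.77 and 1.91 CPM in E16.5 cKO libraries and 6.48, 5.05 and 2.87 CPM in E16.5 WT libraries. The groups overlapped, and values with the same letter lay close (log2 fold change 0.03, adjusted p = 0.979). The 18 GABAergic and ventral telencephalic markers summed to 256 to 317 CPM in E16.5 cKO and 260 to 318 CPM in E16.5 WT libraries, and 0 of 17 tested were called at E16.5.

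Of the 5 dopamine receptors, 2 were tested and none was called. Drd1, which couples to stimulatory G proteins, had 7.55, 5.08 and 4.23 CPM in E16.5 cKO libraries and 11.4, 8.25 and 8.05 CPM in E16.5 WT libraries. The groups did not overlap, but the difference missed the threshold (log2 fold change -0.71, SE 0.24, adjusted p = 0.0865). With the shared number as a block it passed (log2 fold change -0.73, adjusted p = 0.00411). At E14.5 Drd1 averaged 4.53 ± 2.34 CPM in cKO and 6.94 ± 1.65 CPM in WT libraries, with overlap (log2 fold change -0.62, adjusted p = 0.419).

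All 5 muscarinic receptors, the G protein-coupled receptors for acetylcholine, were tested, and Chrm1 was called at E16.5. Chrm1 couples to Gq and lies at chr19:8664005-8683606 (plus strand, mm10). It had 2.66, 2.90 and 3.43 CPM in E16.5 cKO libraries, against 7.97, 8.83 and 5.39 CPM in E16.5 WT libraries. All cKO values lay below all WT values (log2 fold change -1.31, SE 0.23, adjusted p = 0.00906). The call was lost in the fit of all 12 libraries (adjusted p = 0.122) and with sex as a term in it (0.154). At E14.5 it had 0.915, 2.79 and 0.739 CPM in cKO and 2.60, 9.55 and 3.28 CPM in WT libraries. There cKO B lay above WT A, and WT B was the highest of all libraries (log2 fold change -1.83, SE 0.67, adjusted p = 0.194). The GABAergic and ventral telencephalic sum was also highest in E14.5 WT B, at 540 CPM against 244 to 328 CPM in the other E14.5 libraries, and its part in the result was not tested.

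Chrm3, which also couples to Gq, had 7.71, 6.53 and 5.08 CPM in E16.5 cKO and 6.27, 5.69 and 6.36 CPM in E16.5 WT libraries. The groups overlapped (log2 fold change 0.07, SE 0.18, adjusted p = 0.822). At E14.5 its mean was 3.89 ± 0.56 CPM in cKO and 4.86 ± 0.27 CPM in WT libraries (log2 fold change -0.32, adjusted p = 0.416).

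The nicotinic family held the receptors measured with the most counts, and its main subunits moved in opposite directions at E16.5. Of 16 subunits, 7 were tested. Chrnb2 and Chrna4 fell and Chrna7 rose.

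Chrnb2 (chr3:89753448-89764632, minus strand, mm10) had 80.3, 78.3 and 78.9 CPM in E16.5 cKO libraries, against 126, 110 and 114 CPM in E16.5 WT libraries. The cKO libraries were close to each other and under the lowest WT library (log2 fold change -0.56, SE 0.07, adjusted p = 0.00268). Its E14.5 level was 48.9, 71.2 and 70.0 CPM in cKO and 88.1, 114 and 89.95 CPM in WT libraries. The groups again did not overlap, with a log2 fold change of -0.61 (SE 0.17), but the adjusted p was 0.109.

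Chrna4, the usual partner of Chrnb2 in the brain (chr2:181022311-181039177, minus strand, mm10), had 1.33, 0.933 and 1.52 CPM in E16.5 cKO libraries and 3.35, 2.61 and 2.51 CPM in E16.5 WT libraries. All cKO values were lower (log2 fold change -1.18, SE 0.27, adjusted p = 0.0252). Without cKO B, WT A or WT B the adjusted p was 0.0771 to 0.0959, in the fit of all 12 libraries 0.158, and with sex as a term 0.186. At E14.5 it had 0.377, 1.12 and 0.739 CPM in cKO and 1.20, 4.17 and 5.95 CPM in WT libraries. The groups did not overlap, but the WT spread was wide (log2 fold change -2.36, SE 0.63, adjusted p = 0.107).

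Chrna7, whose product forms channels on its own (chr7:63098692-63212526, minus strand, mm10), had 70.3, 58.2 and 47.2 CPM in E16.5 cKO libraries, against 40.6, 44.6 and 34.8 CPM in E16.5 WT libraries. Every cKO library lay above every WT library, cKO C least so (log2 fold change 0.55, SE 0.15, adjusted p = 0.0484). The call was lost in 7 of 15 alternatives, each with the same direction, among them without cKO A (log2 fold change 0.40), cKO B, WT A, WT B or WT C, with adjusted p of 0.0657 to 0.143, and in the fit of all 12 libraries without and with sex as a term, with 0.159 and 0.199. In the E14.5 libraries it had 19.9, 46.1 and 36.5 CPM in cKO and 28.6, 29.1 and 26.1 CPM in WT libraries. There cKO A lay below and cKO B and C above all WT libraries (log2 fold change 0.29, adjusted p = 0.576). Without cKO A, the library with the high meningeal, blood and vascular sums, the log2 fold change was 0.56 (adjusted p = 0.0756), and the part of those cells in the result was not tested.

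The balance of these subunits was also read inside each library, which needs no scaling between libraries. The pair joins the single rise to a fall and was chosen after these values were seen, so the ratio is a description. The ratio of Chrna7 to Chrnb2 per kilobase was 2.26, 1.91 and 1.54 in E16.5 cKO libraries and 0.831, 1.04 and 0.788 in E16.5 WT libraries. At E14.5 it was 1.05, 1.67 and 1.34 in cKO and 0.835, 0.661 and 0.746 in WT libraries. The ratio was higher in all 6 cKO than in all 6 WT libraries. A ratio shows unequal change of the 2 genes and not which of them changed. As shares of all nicotinic message per kilobase, Chrna7 made up 62.5% in E16.5 cKO and 44.0% in E16.5 WT, and 53.4% in E14.5 cKO and 38.7% in E14.5 WT libraries. Chrnb2 made up 33.3% in E16.5 cKO and 49.9% in E16.5 WT, and 40.2% in E14.5 cKO and 52.0% in E14.5 WT libraries.

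**Figure D4:**
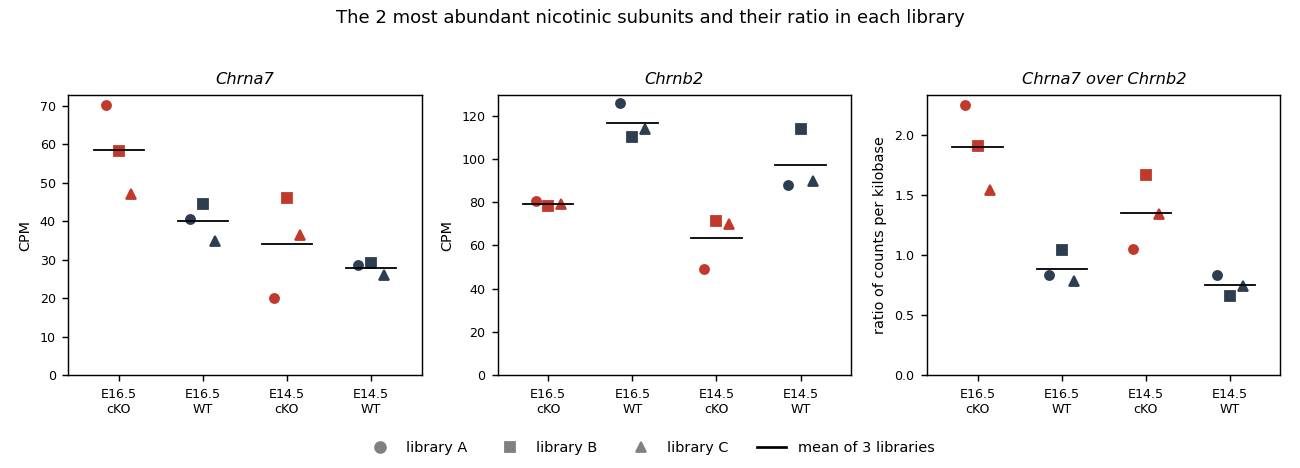
Chrna7 and Chrnb2 (CPM) and the ratio of Chrna7 to Chrnb2 per kilobase in each library (circle A, square B, triangle C), with group means as lines. Red is cKO and dark blue WT. The ratio is 1.05 or more in every cKO library and 1.04 or less in every WT library.

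Of the 7 P2X receptors, which are cation channels opened by ATP, 6 were tested and P2rx2 was called at E16.5. P2rx2 (chr5:110339812-110343035, minus strand, mm10) had 0.478, 0.207 and 0.924 CPM in E16.5 cKO libraries, against 3.82, 2.27 and 2.51 CPM in E16.5 WT libraries. The groups lay far apart (log2 fold change -2.46, SE 0.47, adjusted p = 0.0126). At E14.5 it had 0.161, 0.767 and 0.246 CPM in cKO and 1.45, 1.83 and 1.20 CPM in WT libraries. All cKO values were again lower, with a log2 fold change of -1.99 (SE 0.55) and an adjusted p of 0.110.

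None of the other 5 tested P2X genes passed. At E16.5, the fitted log2 fold change was above 0 for P2rx3, P2rx4 and P2rx5 and below 0 for P2rx6 (-0.55) and P2rx7 (-0.23), and at E14.5 P2rx6 and P2rx7 had -0.58 and -0.33. P2rx3, chosen after its values were seen, had 1.81, 2.07 and 1.72 CPM in E16.5 cKO and 1.27, 0.988 and 1.13 CPM in E16.5 WT libraries (log2 fold change 0.71, adjusted p = 0.105). The E14.5 values were 2.91, 2.09 and 2.38 CPM in cKO and 1.30, 1.20 and 1.52 CPM in WT libraries (log2 fold change 0.88, adjusted p = 0.142). It was higher in all 6 cKO than in all 6 WT libraries, as were 4.05% of all genes tested. Its gene model overlaps an unnamed gene on the same strand. P2rx5, also chosen after its values were seen, averaged 4.04 ± 1.33 CPM in E16.5 cKO and 2.04 ± 0.46 CPM in E16.5 WT libraries (log2 fold change 0.99, adjusted p = 0.0709), and passed with the shared number as a block (log2 fold change 0.95, adjusted p = 0.0108). P2rx4, known from microglia, had 4.09, 3.06 and 2.58 CPM in E16.5 cKO and 3.13, 3.08 and 2.98 CPM in E16.5 WT libraries, which overlapped (log2 fold change 0.08, adjusted p = 0.845).

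The P2Y receptors, which bind nucleotides and couple to G proteins, had 4 of 8 members tested and none called. P2ry12, the ADP receptor that marks microglia, had 2.34, 2.59 and 3.50 CPM in E16.5 cKO and 3.03, 2.67 and 4.77 CPM in E16.5 WT libraries. The groups overlapped (log2 fold change -0.33, adjusted p = 0.476). At E14.5 it averaged 2.94 ± 0.24 CPM in cKO and 2.90 ± 0.56 CPM in WT libraries (log2 fold change 0.03, adjusted p = 0.964). The 12 microglia and macrophage markers summed to 35.8 to 65.3 CPM in E16.5 cKO, 40.8 to 47.9 in E16.5 WT, 31.9 to 55.7 in E14.5 cKO and 26.3 to 44.9 in E14.5 WT libraries, and none of the 11 tested was called at either age.

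Of the 5 somatostatin receptors, which couple to inhibitory G proteins, 3 were tested, and Sstr2 fell at both ages. Sstr2 (chr11:113624257-113625636, plus strand, mm10) had 17.2, 23.8 and 25.4 CPM in E16.5 cKO libraries, against 33.4, 35.5 and 39.96 CPM in E16.5 WT libraries. At E14.5 it had 27.8, 28.7 and 34.6 CPM in cKO and 55.7, 46.9 and 46.2 CPM in WT libraries. The groups did not overlap at either age. The log2 fold change was -0.72 (SE 0.15, adjusted p = 0.0182) at E16.5 and -0.70 (SE 0.13, adjusted p = 0.0425) at E14.5. Without cKO B, WT B or WT C the adjusted p was 0.0567 to 0.0686 at E16.5, and without any 1 library it was 0.0604 to 0.161 at E14.5.

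The other tested members, Sstr1 and Sstr3, were not called. Sstr3 averaged 7.63 ± 0.15 CPM in E16.5 cKO and 7.40 ± 0.72 CPM in E16.5 WT libraries (log2 fold change 0.04, adjusted p = 0.886). At E14.5 it averaged 6.56 ± 1.60 CPM in cKO and 9.43 ± 1.1 CPM in WT libraries (log2 fold change -0.52, adjusted p = 0.228). Sstr1 averaged 5.57 ± 0.62 CPM in E16.5 cKO and 5.75 ± 0.76 CPM in E16.5 WT libraries (log2 fold change -0.05, adjusted p = 0.886). The ratio of Sstr2 to Sstr3 per kilobase was 9.81 ± 1.78 in E16.5 cKO and 16.7 ± 0.83 in E16.5 WT libraries (SD, n = 3 each, exact permutation p = 0.1). At E14.5 the ratio was 16.3 ± 3.77 in cKO and 17.9 ± 2.01 in WT libraries (exact permutation p = 0.6). The smallest p that 3 against 3 can give is 0.1. Sstr2 entered the ratio as a gene already called in these libraries, so the ratio is a description.

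At E14.5, 2 of the 40 tested receptors passed (5%), Adra2c and Sstr2, against 1.93% of all genes. Both fell, with 1.6% of all genes falling and 0.328% rising. The median log2 fold change of the 40 was -0.60, with 29 below 0, and that of all genes tested was 0.02. The receptors that passed the filter through WT libraries alone all lay below 0 here too, so the filter was part of these values. For 12 of the 40 the 3 cKO libraries were all lower than the 3 WT libraries, against 14.6% of all genes tested, and for 2 they were all higher, against 11.9%. At E16.5 the same counts were 13 of 40 lower, against 17.9% of all genes, and 4 higher, against 19.1%. Over both ages, Adra2c, Chrnb2 and P2rx2 were lower in all 6 cKO than in all 6 WT libraries, as were 5.39% of all genes tested. Without E14.5 cKO A, 31 of the 40 lay below 0 with a median of -0.55, and the log2 fold changes were -2.47 for Adra2c, -0.65 for Sstr2, -0.46 for Chrnb2, -1.65 for P2rx2 and -0.29 for Drd1. Both E14.5 calls were lost when sex was added as a term and when any single E14.5 library was left out. The sex term rests on the E16.5 libraries alone, because each E14.5 group holds a single sex. Its use therefore cannot separate sex from genotype at E14.5. Of the receptors with a DESeq2 adjusted p, 12 of 40 passed at E16.5, against 18% of all genes with one, and 6 of 30 at E14.5, against 8.49%.

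**Figure D5:**
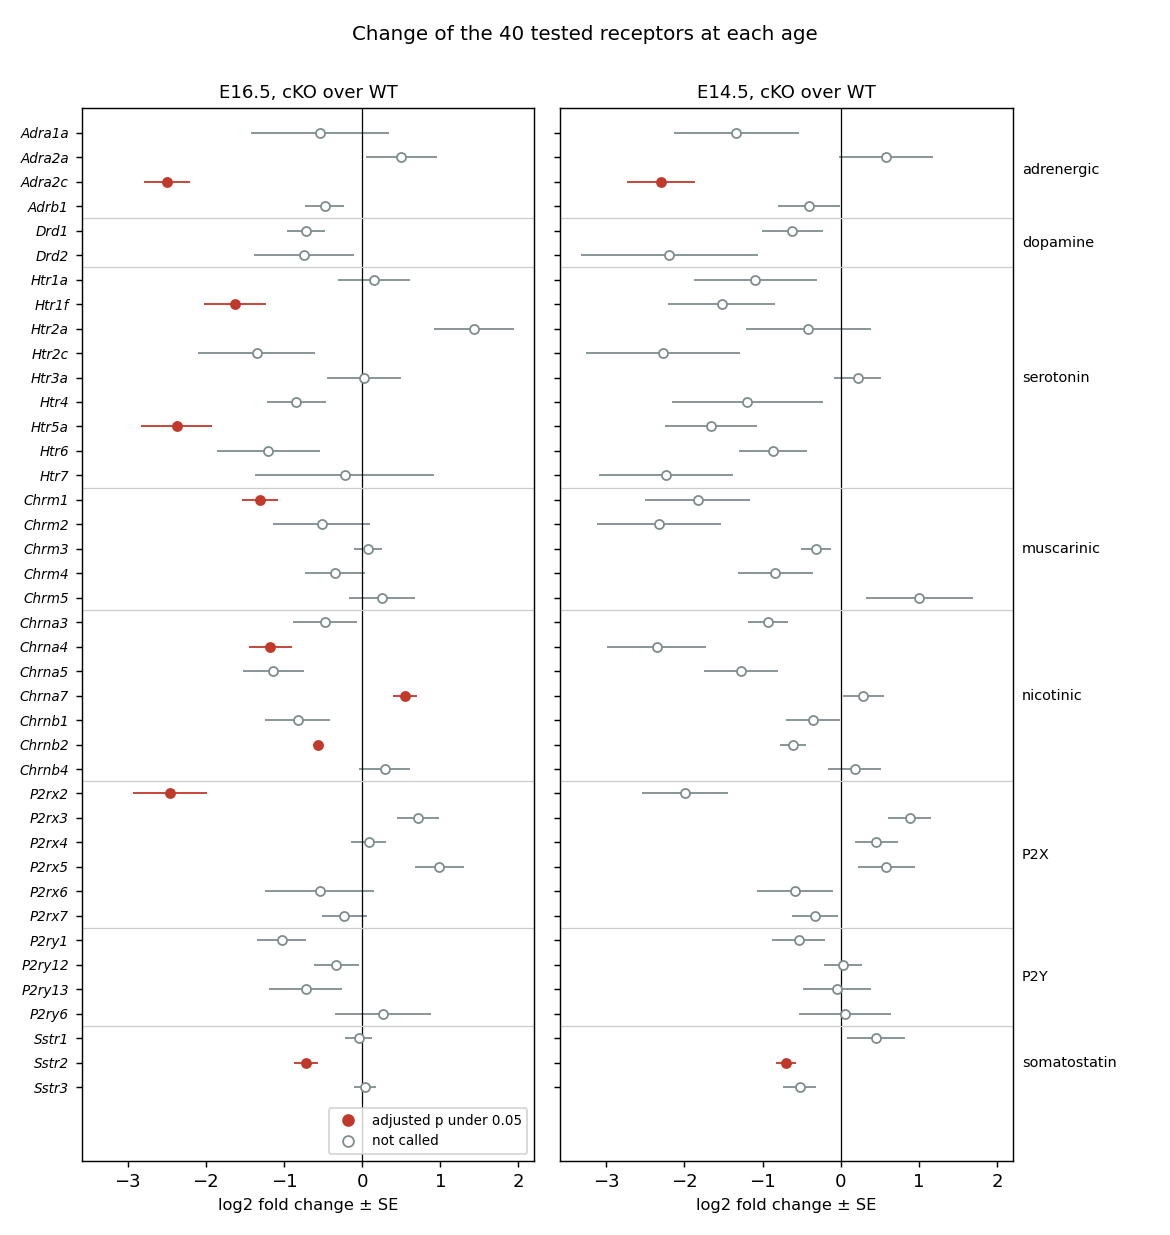
Log2 fold change of cKO over WT, with its SE, for the 40 tested receptors by family, at E16.5 (left) and E14.5 (right). Filled red points passed an adjusted p of 0.05. At E16.5, 8 filled points lie left of 0 and 1, Chrna7, right of it. At E14.5 the filled points are Adra2c and Sstr2.

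The difference of the cKO effect between the ages was tested itself, and no receptor passed with edgeR. No gene passed among all tested (0%), with 344 genes and 1 receptor, Sstr3, at an unadjusted p under 0.05. DESeq2 also called 0. The fitted difference of E16.5 minus E14.5 was -0.18 for Adra2c, -0.01 for Sstr2, 0.06 for Chrnb2, 0.26 for Chrna7 and -0.44 for P2rx2. A receptor called at E16.5 and not at E14.5 was therefore not shown to differ between the ages.

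With age in WT cortex, 1 receptor passed, Htr1f, which was higher at E16.5, against 2.1% of all genes tested, of which 0.746% rose and 1.35% fell. It had 1.22, 0.988 and 1.08 CPM in E16.5 WT and 0.200, 0.443 and 0.185 CPM in E14.5 WT libraries. The groups did not overlap (log2 fold change of E16.5 over E14.5 2.01, adjusted p = 0.0413). Htr1f entered the tests through the E16.5 WT libraries alone, the group where it is high, so a higher level there was part of its choice. With no filter on low counts the adjusted p was 0.0563, and with a filter on the mean over all libraries Htr1f was not tested, so no receptor was called in either. The call was also lost without E16.5 cKO B, any 1 E16.5 WT library, E14.5 cKO C, E14.5 WT A or E14.5 WT C (adjusted p 0.0660 to 0.175), and DESeq2 gave no adjusted p for this gene.

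The fallen receptors were set against the pan-neuronal sum of each library, since that sum moved with genotype. Per 1000 CPM of the 14 markers, Chrnb2 had 15.30, 15.10 and 14.49 CPM in E16.5 cKO and 16.88, 15.01 and 16.46 CPM in E16.5 WT libraries. These groups overlapped, and they did so at E14.5 as well. The log2 ratio of means was -0.11 at E16.5 and -0.08 at E14.5. For Sstr2 the groups also overlapped at both ages, with log2 ratios of -0.27 and -0.17 at E16.5 and E14.5.

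The other fallen receptors kept on this scale the separation that they had in CPM. The log2 ratio of means for Adra2c was -2.06 at E16.5 and -1.63 at E14.5, and for P2rx2 it was -1.98 at E16.5 and -1.53 at E14.5. For Htr1f it was -1.20 at E16.5 and -1.06 at E14.5, and for Chrna4 -0.72 at E16.5 and -1.87 at E14.5. At each age these 4 genes were lower in every cKO library. Htr5a at -1.96 and Chrm1 at -0.85 were separate at E16.5 and overlapped at E14.5. Chrna7, which rose, was higher in every cKO library on this scale at both ages, at 1.01 and 0.75 for E16.5 and E14.5. In CPM its E14.5 groups overlapped. A low pan-neuronal sum in a cKO library raises every gene of that library on this scale. Of the summed marker level, Dcx made up 33.1% and Map2 19.3%, so the scale rests mostly on a few genes, and the part of neuronal content in each result was not tested.

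The genes that act around these receptors were read from lists chosen with earlier results known. Their counts at E16.5 stand against 9.37% of all genes tested falling and 5.82% rising. Of 12 tested G protein alpha subunits, 3 fell and none rose at E16.5. Gnao1, an abundant alpha subunit of the brain, averaged 391 ± 7.94 CPM in cKO and 488 ± 26.5 CPM in WT libraries (log2 fold change -0.33). Gnal fell by 0.98 and Gnai1 by 0.46 on the log2 scale. Of 13 tested beta and gamma subunits, 6 fell and 2 rose. Gng3 averaged 9.61 ± 1.34 CPM in cKO and 28.2 ± 2.59 CPM in WT libraries (log2 fold change -1.56), and Gnb4 (-1.22) and Gng2 (-0.58) fell too. Of 19 kinases, arrestins and RGS proteins, which end G protein signalling, 4 fell and 1 rose. The listed kinase genes Adrbk1 and Adrbk2 were not found under those symbols and were left out. Rgs6 fell with a log2 fold change of -1.45 and Grk5 rose with 0.50.

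Among 8 tested genes of monoamine synthesis, transport and breakdown, 4 fell and 1 rose at E16.5. Maoa, the monoamine oxidase that breaks down serotonin and noradrenaline, averaged 14.03 ± 0.34 CPM in cKO and 26.9 ± 2.09 CPM in WT libraries (log2 fold change -0.95, adjusted p = 0.00192). The tryptophan hydroxylase gene Tph1 averaged 6.59 ± 2.73 CPM in cKO and 0.925 ± 0.313 CPM in WT libraries (log2 fold change 2.81, adjusted p = 0.00377). The low-affinity monoamine transporter Slc29a4 fell with a log2 fold change of -0.55. None of 3 tested genes of acetylcholine handling passed, and the 2 of highest level, Bche and Ache, averaged 2.47 and 1.86 CPM in E16.5 cKO and 2.39 and 1.95 CPM in E16.5 WT libraries.

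Of 8 tested chaperones and Ly6 modulators of nicotinic receptors, 4 fell and none rose. Tmem35 was also listed but was not found under that symbol, so it was left out. Ric3, a chaperone that promotes assembly of Chrna7 channels, averaged 33.0 ± 3.82 CPM in E16.5 cKO and 57.0 ± 2.73 CPM in E16.5 WT libraries (log2 fold change -0.80, adjusted p = 0.00280). The direction of Ric3 was thus opposite to that of Chrna7 itself. Nrn1 (-0.86) and Ly6e (-0.59) fell as well. Of 14 tested genes for nucleotide release, breakdown and adenosine receptors, 2 fell, Adora1 (-0.88) and Panx2 (-0.89), and 2 rose, Entpd5 (0.65) and Adk (0.58). Neither of the somatostatin family ligands passed: Sst averaged 3.58 CPM in E16.5 cKO and 3.50 CPM in E16.5 WT libraries, and Cort 0.665 CPM in cKO and 0.553 CPM in WT libraries. At E14.5 Gnb4, Maoa, Ric3 and Nrn1 fell and Entpd5 rose, and no other gene of these lists passed. At that age 1.6% of all genes tested fell and 0.328% rose, and sex and genotype cannot be told apart.

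In the authors' deposited table for E16.5, 12 of 44 receptors with an adjusted p lay under 0.05 (17% of all genes there), and these include all 9 called here. In the authors' deposited table for E14.5, 6 of 33 lay under 0.05 (7.91% of all genes there), namely Adra2c, Chrna3, Chrna4, Chrnb2, P2rx2 and Sstr2. Both tables come from the same libraries, so they are not independent evidence.

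The 29 untested receptors had group means of at most 0.461 CPM. Chrna9, Chrnb3 and P2ry10 had 0 counts in all 12 libraries, which allows a level of up to 0.0134 CPM over the 12 libraries (3 counts, counting error only).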

How the data were processed

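RNA-seq of 12 libraries was analysed from deposited raw counts of fragments per gene. Reads were aligned to mm10 by the authors (STAR 2.5.2b in the submitters' processing notes) and counted with featureCounts 1.5.2 over RefSeq exons on the reverse strand (setting 2) with at least 25 bases of overlap, per the file headers. The authors also deposited log2 fold changes of WT over knockout and adjusted p-values from DESeq2 1.14.1. The 12 columns of normalised values in those tables were not used. Of 27179 genes, 847 have no symbol.

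Tests used the quasi-likelihood method of edgeR 4.0.16 (R 4.3.3, with limma 3.58.1), with TMM scaling, a robust fit and Benjamini-Hochberg adjustment over the 15542 genes with a mean of 0.5 CPM or more in any group, threshold 0.05. Each age was fitted on its 6 libraries by genotype. All 12 libraries entered 1 fit for the age difference and for WT age. SEs were derived from each log2 fold change and its F statistic. CPM uses TMM effective totals, except in the filter, which uses library totals. An offset of 2 CPM was added only for the logs behind the correlations between libraries. No prior count was set for the fits. Alternatives were other scalings, filters, DESeq2 1.42.0, a replicate block, sex as a term and leaving out libraries. The procedure was tested on simulated data in which few of the 15542 genes were changed. A 1.5-fold change was recovered in 28.4% of changed genes at E16.5, 8.96% at E14.5, 1.49% for the age difference and 25.4% for WT age. In that order, a 2-fold change was recovered in 68.7%, 44.8%, 34.3% and 59.7%, and a 4-fold change in 89.4%, 87.9%, 68.2% and 89.4%.

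Named with values in every library were receptors called in a cKO comparison and the highest per family by RPKM. Uncalled receptors at 5 CPM or more in a group were named by means, and listed genes around them by p. The members and lists were chosen with earlier results of these data known.

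At E16.5, libraries that share a title number deviated together (r of 0.406, 0.295 and 0.204 across genes, against -0.362 to 0.164 for different numbers). The main tests were by genotype only and did not use these pairs, which entered only in the alternative with a replicate block. Within groups, the chi-square statistic per degree of freedom between libraries was 9.06 to 48.3, so none was treated as a copy. Rn45s took 2.28% to 6.11% of counts. The labels do not say whether libraries came from separate litters, so p-values cover only the spread among these libraries. Both E16.5 groups held male and female libraries, so the spread there is not technical alone. At E14.5 each group held a single sex, and how much of the spread is technical is not known. Promoter windows are RefSeq's in GRCm38.p6.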

Additional observations from a re-analysis of the deposited data

How the results depend on the processing

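At E16.5, 9 receptors were called, and 4 to 9 when any 1 library was left out: 5 without cKO B and 4 without WT B. In the fit of all 12 libraries, with or without sex as a term, it was 6. The counts over all genes in these fits are not given here, so this drop is not read as particular to the receptors. With the replicate block the pairing gave 11 receptors and 4823 genes, against 2361 genes without it. Without cKO B, without WT A and without WT B the counts over all genes were 996, 1121 and 982. At E14.5, 2 receptors were called among 300 genes. The count was 1 with library totals as scaling, 6 with DESeq2 (1243 genes), 7 with the replicate block (1325 genes), 6 in the fit of 12 libraries (1329 genes), 0 with sex as a term (126 genes), 1 without WT B and cKO A together (612 genes) and 0 when any 1 library was left out (5 to 331 genes). At E14.5, libraries with the same number deviated together for A and B (r 0.355 and 0.317) but not for C (-0.0785), against -0.347 to 0.145 for different numbers. For WT age, 1 receptor was called among 326 genes, 2 with DESeq2 (2012 genes), 0 without a filter (230 genes), 0 with a filter on the mean over all libraries, and 0 to 3 with 1 library left out (1 to 2214 genes). The age difference gave 0 receptors in every alternative run. No paired fit was made for WT age because WT libraries of the 2 ages share no number. Causes were not tested. No called receptor changed direction. Adra2c, Chrnb2 and P2rx2 kept their E16.5 call in all 15 alternatives, Htr5a in 14, Chrm1 in 13, Sstr2 in 12, Chrna4 and Htr1f in 10 and Chrna7 in 8. At E14.5, Adra2c kept it in 7 of 16 and Sstr2 in 9. Low counts limit Adra2c, Htr1f, Htr5a and P2rx2 to wide intervals.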

Other observations

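Among the 29 untested receptors, 2 were lower in all 6 cKO than in all 6 WT libraries, both chosen after their values were seen and neither tested. Of all genes tested, 5.39% were lower in this way, and the share among genes too low to test was not computed. The dopamine receptor gene Drd4 had 2, 2 and 1 counts in E16.5 cKO libraries and 9, 7 and 3 in E16.5 WT libraries, and 2, 0 and 1 in E14.5 cKO and 12, 8 and 6 in E14.5 WT libraries. The serotonin receptor gene Htr1b had 0 counts in every cKO library, against 2, 1 and 1 counts in E16.5 WT and 1, 6 and 5 counts in E14.5 WT libraries.

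The beta3 adrenoceptor gene Adrb3 had 8, 3 and 0 counts in E16.5 cKO and 1, 0 and 0 in E16.5 WT libraries, and 3, 9 and 8 in E14.5 cKO and 1, 0 and 1 in E14.5 WT libraries. Over both ages this was 31 counts in 6 cKO and 3 counts in 6 WT libraries, a ratio of 10.8 per total count (exact 95% interval 3.36 to 55.0, counting error only). Adrb3 lies 1.40 Mb from Ash2l on chromosome 8. Its value was picked after it was seen, and the difference was not tested over libraries. The other receptors near Ash2l were Chrna6, with 1 count in cKO and 0 in WT libraries, and Chrnb3, with 0 in both.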
